A study of Mus musculus with 8 samples.

Results

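The genes described here encode the machinery that folds sperm surface proteins in the endoplasmic reticulum (ER) of the testis, together with several of the proteins folded. They are the testis ER chaperones Clgn and Calr3, the general ER chaperones Canx, Calr and Pdia3, the sperm surface proteins Tex101, Ly6k and Ace, and the sulfotransferase Tpst2. They were taken by gene name alone, from a rule of 10 names, of which 9 matched a row of the deposited table of 54532 genes. All 9 passed the filter for testing, which kept the 12141 protein-coding genes with a mean above 1 FPKM (fragments counted for a gene, divided by gene length and scaled library size) in both groups. The tenth name, Pdilp, matched no row. The table holds Pdilt, the testis-expressed protein disulfide isomerase, under its own name. Its values are given apart and are counted with no group of members.

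RNA was measured in whole testes of 4 control mice and 4 knockout mice, with 1 library per mouse. The control group is Sync-Spdya fl/fl, with both Spdya alleles floxed and no Cre. The knockout group is Sync-Spdya cKO, with genotype Spdya fl/fl;Ddx4-CreERT2, in which a tamoxifen-activated Cre driven in germ cells removes exon 2 of Spdya. Every mouse in both groups was on the C57BL/6J background, had its spermatogenesis synchronized by an inhibitor of retinoic acid synthesis followed by retinoic acid (RA) in the second postnatal week, and received tamoxifen at RA7.5 and RA8.5 by the sample labels (the methods text gives slightly earlier times). Testes were collected at RA11.5, when the germ cells are described as mid-late pachytene spermatocytes. The Cre acts only in germ cells and not in every one of them, while the RNA came from all cells of the testis.

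The libraries held 13978342 to 17867570 fragments on genes in the control group and 15494873 to 19583091 in the cKO group. Spdya ranged from 19.7 to 23.8 FPKM in the control libraries and from 17.7 to 30.5 FPKM in the cKO libraries. Its log2 fold change was 0.15 (limma adjusted p = 0.787), so its level over the whole gene gave no check of the labels. Spermatocyte markers summed to between 955 and 1813 FPKM, and Sertoli cell markers to between 1693 and 2792 FPKM. Among the genes that mark haploid spermatids, Prm1 reached at most 0.580 FPKM, Tnp2 at most 0.498 FPKM and Tnp1 at most 0.279 FPKM, while Spaca1 ranged from 1.92 to 8.99 FPKM, Tssk6 from 0.823 to 2.74 FPKM, Tssk1 up to 1.14 FPKM and Tssk2 up to 1.10 FPKM. Control replicate 1 stood apart, with 0.464% of its fragments on mitochondrial genes against 2.20% to 3.74% in the other libraries. It held the highest control value for 4 of the 9 genes and the lowest for 4, and the log2 fold change of each gene without it is given below.

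Glycoproteins that enter the ER receive a sugar chain, and the lectin chaperones calnexin (Canx, bound to the membrane) and calreticulin (Calr, soluble) hold them by that sugar until they are folded. Pdia3, also known as ERp57, works with both of them and rearranges disulfide bonds in their clients. Male germ cells add their own versions of this machinery: calmegin (Clgn) resembles calnexin, calsperin (Calr3) resembles calreticulin, and Pdilt is a disulfide isomerase family member. Mice that lack Clgn, Calr3 or Pdilt make sperm that lack mature ADAM3 on the surface, do not pass the uterotubal junction and do not bind the zona pellucida. Tex101 and Ly6k are small GPI-anchored proteins of the Ly6 family that bind each other on germ cells, and the testis form of angiotensin-converting enzyme (Ace) is involved in the shedding of TEX101 from sperm. Tpst2 adds sulfate to tyrosines of secreted and membrane proteins in the Golgi, and males without it are infertile.

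The stretches before the transcription starts of 4 of these genes are shown because each holds a regulatory word known from ER chaperone genes or from the testis promoter of Ace. Letters were read from RefSeq on GRCm38.p6, 5′ to 3′ on the strand of the gene. RefSeq gave 11 starts for 7 of the 9 genes (none was matched for Clgn and Ly6k), and 250 bases before each start were searched on both strands. Capitals mark the ER stress response element in Calr and Canx, which is CCAAT, 9 free bases (in lower case) and CCACG. In Ace and Calr3 they mark TGAGGTCA, a variant of the cyclic AMP response element that is well known from the testis promoter of Ace.
Calr, chr8:84847012-84847131, minus strand: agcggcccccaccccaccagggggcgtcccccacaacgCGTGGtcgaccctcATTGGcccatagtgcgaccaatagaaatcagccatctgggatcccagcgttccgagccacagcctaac
Canx, chr11:50325754-50325873, minus strand: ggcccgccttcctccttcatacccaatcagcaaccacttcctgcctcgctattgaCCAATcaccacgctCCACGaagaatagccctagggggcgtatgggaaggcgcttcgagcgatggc
Ace, testis start, chr11:105975069-105975188, plus strand: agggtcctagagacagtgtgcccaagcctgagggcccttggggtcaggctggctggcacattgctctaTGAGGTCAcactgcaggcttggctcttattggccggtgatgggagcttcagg
Calr3, chr8:72443969-72444028, minus strand: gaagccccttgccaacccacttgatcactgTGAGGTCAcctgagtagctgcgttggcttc
The ER stress element lay on the reverse strand in Calr, where it reads CGTGG before ATTGG, and on the forward strand in Canx. It was found before 37 of 32851 RefSeq starts, or 0.113%, and before 2 of the 11 starts of these genes. TGAGGTCA was found before 1.94% of all starts and before 2 of the 11, which include the testis start of Ace, from which the word is known. The unvaried element TGACGTCA, which differs from TGAGGTCA in 1 letter, was found before 1.55% of all starts and before 0 of the 11. The ER stress element and TGAGGTCA were chosen because they are known from such genes, so their counts are no test of enrichment. The stretch at the testis start of Ace overlapped no annotated exon and lies inside the gene, between exons of the longer somatic transcript. A match of letters is a description of the window and no measure of binding.

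The levels differed widely. Because FPKM is per length, they can be compared between genes, but only roughly. The length is the one listed for the gene, which can exceed that of the transcript made. For Ace it is 5287 bases, against 2418 for the short transcript Ace-202. Tex101 had the highest mean over the 8 libraries, 317 FPKM, followed by Calr with 197, Pdia3 with 159, Clgn with 148, Canx with 89.1 and Ly6k with 72.3 FPKM. Tpst2 followed with 8.81, Ace with 3.19 and Calr3 with 2.00 FPKM. Within this order the ranges of neighbours did not overlap between Tex101 and Calr, Clgn and Canx, Ly6k and Tpst2, or Tpst2 and Ace. The ranges overlapped between Calr and Pdia3, Pdia3 and Clgn, Canx and Ly6k, and Ace and Calr3, although Ace was above Calr3 within each of the 8 libraries. The cKO library with replicate number 1 held the highest cKO value for 7 of the 9 genes, and cKO replicate 4 the lowest for 5.

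**Figure D1:**
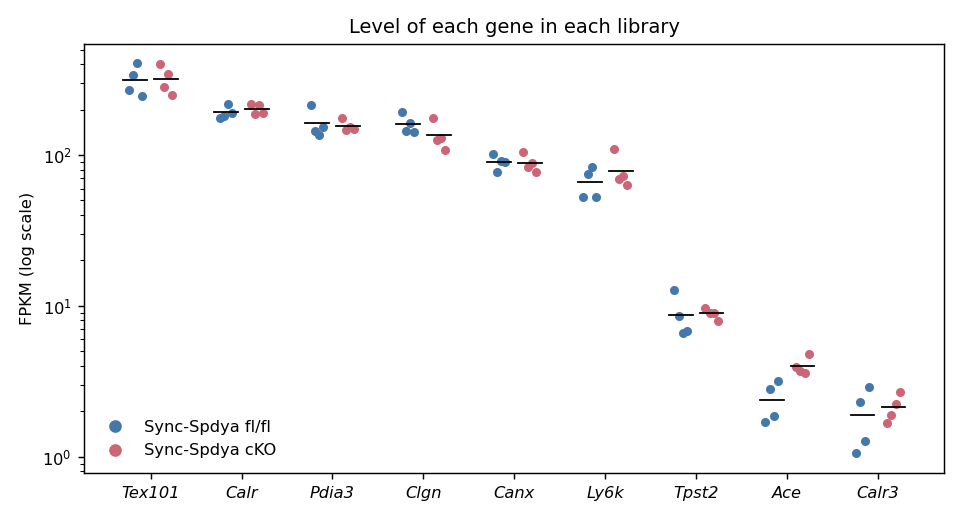
FPKM of each gene on a log axis, with 1 point per library, Sync-Spdya fl/fl in blue and Sync-Spdya cKO in red, and a bar at the mean of each group of 4. The groups overlap for every gene except Ace, whose lowest cKO library (3.58 FPKM) lies above the highest control library (3.197 FPKM).

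None of the 9 genes was called as changed at an adjusted p below 0.05 with an absolute log2 fold change above 1, where 0.0165% of all genes tested (2 of 12141) were called. At an unadjusted p below 0.05, 1 of the 9 was higher in the cKO libraries (5.89% of all genes) and 0 were lower (5.00% of all genes). Non-overlapping groups were seen for 1 of the 9, which was higher in the cKO libraries, against 3.64% of all genes higher and 6.24% in either direction. That gene is Ace in both counts. A count of 1 in 9 is near these shares of all genes and is not a result about the group. The median log2 fold change of the 9 was 0.08, beside 0.01 over all genes tested.

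**Figure D2:**
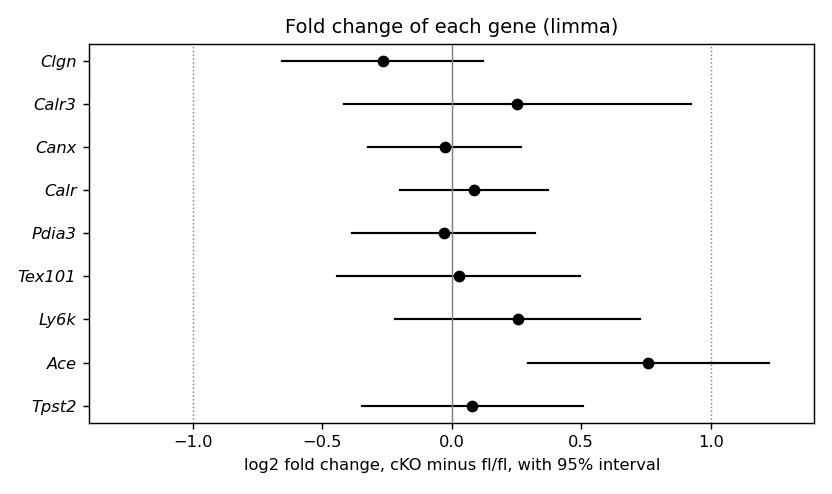
Log2 fold change of each gene (cKO minus fl/fl, points) with its 95% interval (lines) from limma on log2(FPKM + 0.1), with dotted lines at the threshold of 1 in each direction. The interval of Ace (0.29 to 1.22) does not include 0, and the other 8 do.

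Clgn (ENSMUSG00000002190, chr8:83389867-83428552), the testis homologue of calnexin, was the most abundant of the testis chaperones. It was measured at 194, 144, 162 and 142 FPKM in control replicates 1 to 4 and at 177, 126, 129 and 107 FPKM in cKO replicates 1 to 4. Of the 4 cKO libraries, 3 lay below every control library and cKO replicate 1 lay above 3 controls, so the groups overlapped. The means were 161 ± 24.0 and 135 ± 29.6 FPKM (SD, n = 4 each), and the log2 fold change was −0.27 (SE 0.17, limma adjusted p = 0.635). The 95% interval ran from −0.65 to 0.12, which includes 0. Without cKO replicate 1 the log2 fold change was −0.40 (limma adjusted p = 0.327). It was −0.16 without cKO replicate 4 and −0.17 without control replicate 1.

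Calnexin (Canx, ENSMUSG00000020368, chr11:50293961-50325673) gives the somatic counterpart in the same libraries. Its control values were 102, 76.8, 91.0 and 90.0 FPKM, and its cKO values 104, 83.0, 89.0 and 77.3 FPKM. The means of 89.9 ± 10.2 and 88.4 ± 11.5 FPKM (SD, n = 4 each) differed by a log2 fold change of −0.03 (SE 0.13, limma adjusted p = 0.959). The 95% interval was −0.32 to 0.27. The sign was positive after rescaling to TPM, with array weights and without control replicate 1 (0.04). It was also positive without cKO replicate 4 (0.03) and without cKO replicate 2 (2.6e-05). Within a library Clgn stood above Canx in all 8, by a ratio of 1.79 ± 0.149 in the control and 1.51 ± 0.134 in the cKO group (SD, n = 4 each). The ratio was 1.91, 1.88, 1.78 and 1.58 in the control libraries and 1.70, 1.52, 1.45 and 1.39 in the cKO libraries. Only the ratio of cKO replicate 1 lay within the control range, and the groups overlapped through it and control replicate 4.

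Calr3 (ENSMUSG00000019732, chr8:72424176-72443870), the testis homologue of calreticulin, was the lowest of the 9 genes. It had 1.05, 2.31, 1.27 and 2.89 FPKM in the control libraries and 1.68, 1.88, 2.24 and 2.67 FPKM in the cKO libraries. All 4 cKO values lay inside the control range. The means were 1.88 ± 0.869 and 2.12 ± 0.434 FPKM (SD, n = 4 each), and the log2 fold change was 0.25 (SE 0.30, limma adjusted p = 0.815, 95% interval −0.42 to 0.92). These values rest on 27 to 93 fragments per library. At control replicate 1 the exact 95% Poisson interval was 0.692 to 1.53 FPKM, which covers counting error only. The log2 fold change ran from 0.03 without control replicate 1 to 0.49 without control replicate 4. A processed pseudogene on the same strand, Gm3835, overlaps Calr3 and was listed at 0.159 to 1.77 FPKM, so the assignment of fragments between them is uncertain.

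Calreticulin (Calr, ENSMUSG00000003814, chr8:84841850-84846934) was far more abundant than its testis homologue. The control libraries held 176, 182, 218 and 190 FPKM of Calr and the cKO libraries 220, 188, 214 and 191.4 FPKM. Its means, 192 ± 18.7 and 203 ± 15.9 FPKM (SD, n = 4 each), gave a log2 fold change of 0.09 (SE 0.13, limma adjusted p = 0.852, 95% interval −0.20 to 0.37). Without control replicate 1 it was 0.05. The ratio of Calr3 to Calr was 0.00993 ± 0.00478 in the control and 0.0105 ± 0.00260 in the cKO libraries (SD, n = 4 each), with overlapping ranges. Calr was the gene with the narrowest interval.

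Pdia3 (ENSMUSG00000027248, chr2:121413775-121438687), the disulfide isomerase that partners both lectins, had 214, 145, 136 and 153 FPKM in the control libraries and 175, 147, 154 and 149 FPKM in the cKO libraries. Control replicate 1 was the highest of the 8, and all cKO values lay within the control range. The means were 162 ± 35.1 and 156 ± 12.8 FPKM (SD, n = 4 each), with a log2 fold change of −0.03 (SE 0.16, limma adjusted p = 0.961, 95% interval −0.38 to 0.32). Without control replicate 1 it was 0.11, and it was also above 0 after rescaling to TPM and with array weights. Catsper2, on the opposite strand, overlaps Pdia3 and had 8.13 to 23.8 FPKM. The sources used here do not say whether strand was used in counting.

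Pdilt (ENSMUSG00000030968, chr7:119486587-119523489), the testis disulfide isomerase, was at or near the limit of detection. It was listed at 0, 0, 0.0280 and 0.0803 FPKM in the control libraries and at 0.0226, 0.165, 0.0780 and 0.207 FPKM in the cKO libraries. These values are 0, 0, 1 and 3 fragments and 1, 6, 3 and 8 fragments. For a count of 0 the exact 95% Poisson interval reached 0.123 FPKM in control replicate 1 and 0.0892 FPKM in control replicate 2, which covers counting error only. The groups overlapped, all 4 cKO values were above the control median and 2 were above the control maximum. The gene was below the filter, so no test was run and no fold change is given. Pdia3 was above Pdilt in every library.

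**Figure D3:**
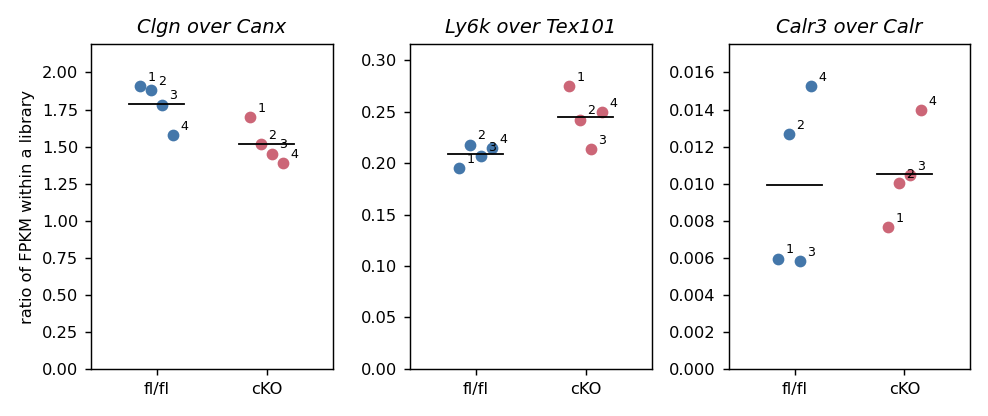
Ratio of FPKM of Clgn to Canx, Ly6k to Tex101 and Calr3 to Calr within each library, each panel with its own axis from 0, with 1 point per library labelled by its replicate number and a bar at the group mean. The Clgn to Canx ratio is above 1 in all 8 libraries, between 1.39 and 1.91, and the groups overlap in all 3 panels.

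Tex101 (ENSMUSG00000062773, chr7:24668007-24676675) encodes a GPI-anchored protein of germ cells and had the highest level of the 9 genes. It reached 269, 342, 405 and 245 FPKM in the control libraries and 401, 285, 342 and 252 FPKM in the cKO libraries. Every cKO value lay inside the control range. The means of 315 ± 72.7 and 320 ± 65.7 FPKM (SD, n = 4 each) differed by a log2 fold change of 0.03 (SE 0.21, limma adjusted p = 0.973, 95% interval −0.44 to 0.50). Its sign was not stable: it was −0.11 with array weights, −0.04 without control replicate 1 and −0.08 without control replicate 4. It was −0.09 without cKO replicate 1 and −0.01 without cKO replicate 3.

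Ly6k (ENSMUSG00000044678, chr15:74796874-74799986), which encodes a partner of TEX101, had 52.5, 74.5, 83.7 and 52.6 FPKM in the control libraries and 110, 69.0, 73.1 and 62.9 FPKM in the cKO libraries. Only cKO replicate 1 lay above the control range. The means were 65.8 ± 15.8 and 78.8 ± 21.3 FPKM (SD, n = 4 each), and the log2 fold change was 0.25 (SE 0.21, limma adjusted p = 0.723, 95% interval −0.22 to 0.73), with 0.08 without cKO replicate 1 and 0.16 without control replicate 1. Within each group the ratio of Ly6k to Tex101 varied less than either gene did. It was 0.195, 0.218, 0.207 and 0.215 in the control libraries and 0.275, 0.242, 0.214 and 0.250 in the cKO libraries, or 0.209 ± 0.0101 and 0.245 ± 0.0252 (SD, n = 4 each). Of the cKO libraries only replicate 3 lay within the control range of this ratio. The antisense gene Gm17189 overlaps Ly6k and was listed at no more than 0.374 FPKM.

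Tpst2 (ENSMUSG00000029344, chr5:112276691-112315361), the tyrosine sulfotransferase, had 12.8, 8.59, 6.62 and 6.86 FPKM in the control libraries and 9.73, 8.90, 9.02 and 7.97 FPKM in the cKO libraries. Control replicate 1 was above all other libraries, and the other 3 controls reached at most 8.59 FPKM. The means were 8.71 ± 2.84 and 8.91 ± 0.724 FPKM (SD, n = 4 each), with a log2 fold change of 0.08 (SE 0.19, limma adjusted p = 0.915, 95% interval −0.35 to 0.51). Without control replicate 1 the log2 fold change was 0.28 with an unadjusted p of 0.0379 and a limma adjusted p of 0.290, so the value depended on that library.

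Ace (ENSMUSG00000020681, chr11:105967945-105989964) was the only one of the 9 genes whose groups did not overlap. The enzyme converts angiotensin I to angiotensin II, and a long somatic form is made in endothelial and other cells while a short form starts inside the gene in male germ cells. It had 1.69, 2.81, 1.85 and 3.197 FPKM in the control libraries and 3.91, 3.68, 3.58 and 4.80 FPKM in the cKO libraries, from 117 to 431 fragments. All 4 cKO libraries were above all 4 controls. The means were 2.39 ± 0.732 and 3.99 ± 0.556 FPKM (SD, n = 4 each), and the log2 fold change was 0.76 (SE 0.21, 95% interval 0.29 to 1.22), or 1.69-fold (1.22 to 2.33). The unadjusted p was 0.00463 and the limma adjusted p over all genes was 0.245, so Ace did not pass the threshold. Its adjusted p ran from 0.0712 to 0.727 over the alternatives, with log2 fold changes from 0.58 to 0.91, and was 0.174 (log2 fold change 0.62) without control replicate 1.

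The table gives 1 value per gene and does not separate the starts of Ace. In GENCODE vM21 the long transcript Ace-201 starts at 105967945 and has 25 exons and 4906 bases. The short transcript Ace-202 starts at 105975208, just after the testis start whose upstream letters are printed above, and has 14 exons and 2418 bases, or 45.7% of the 5287 bases the deposited table gives as the gene's length. Reads from either start fall on the exons that the transcripts share. In RNA from whole testes, a change in the number of cells of a type and a change in RNA per cell cannot be told apart, for Ace and for every other gene here.

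Markers of several somatic cell types were also higher in sum in the cKO libraries. The 8 endothelial markers summed to 12.8, 17.3, 12.0 and 19.3 FPKM in the control libraries and 20.8, 19.01, 18.7 and 24.7 FPKM in the cKO libraries. None was at 0. Of the 7 tested, all 7 had a log2 fold change above 0 (median 0.41), and 2 were higher at an unadjusted p below 0.05 (5.89% of all genes were): Cdh5, the endothelial cadherin, at 0.72 (limma adjusted p = 0.413) and Pecam1 at 0.62 (limma adjusted p = 0.448). Without control replicate 3, and likewise without cKO replicate 4, 0 of them had an unadjusted p below 0.05. Vwf, also a defining marker, was below the filter at 0.558 to 0.827 FPKM.

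Macrophage markers (8 genes, none at 0) summed to 20.6, 35.5, 27.1 and 37.6 FPKM in the control libraries and to 43.4, 47.5, 40.6 and 53.6 FPKM in the cKO libraries, without overlap. Of 7 tested, 5 were higher at an unadjusted p below 0.05 (5.89% of all genes), and 4 or 5 with any library left out, among them Csf1r (log2 fold change 0.72, limma adjusted p = 0.286), the receptor that macrophages depend on, Lyz2 (0.76, limma adjusted p = 0.286) and C1qb (0.91, limma adjusted p = 0.286). Leydig cell markers summed to 36.7 to 60.3 FPKM against 53.5 to 74.6 FPKM, with 4 of 5 tested higher at that level, and peritubular markers to 47.9 to 79.5 against 78.3 to 109 FPKM, with 1 of 4 higher. Blood markers summed to 10.8 to 39.8 against 22.04 to 46.7 FPKM, with 1 of 3 tested higher. Sertoli cell markers summed to 1693 to 2792 against 2178 to 2563 FPKM. Of the 10 tested, 0 were at that level and 9 were above 0 (median log2 fold change 0.15). Clu was the 1 gene of these 10 whose groups did not overlap (3.64% of all genes were higher without overlap), at 0.36 (limma adjusted p = 0.541). Spermatogonial markers had 1 higher (Etv5, log2 fold change 0.78) and 1 lower (Stra8, −1.46) of 10. With any library left out, the Leydig count was 1 to 3 (1 without control replicate 1, 2 or 3 or cKO replicate 4), the peritubular count 1 or 2 (2 without control replicate 1 or 4) and the blood count 0 to 2 (0 without control replicate 1, 2 or 3 or cKO replicate 1 or 4, and 2 without control replicate 4 or cKO replicate 3), and the Sertoli count was 3 without control replicate 1. The part of these cell types in the difference of Ace was not tested. Spermatid markers, 10 genes of cells in which the testis form of Ace is known to be made, summed to 7.06 to 13.9 against 7.98 to 10.05 FPKM. Only 2 of the 10, Spaca1 and Tssk6, passed the filter, and Spaca1 alone made 8.99 of the 13.9 FPKM in control replicate 1. The sum is therefore a weak measure of spermatids, and their part in the level of Ace was not tested either.

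**Figure D4:**
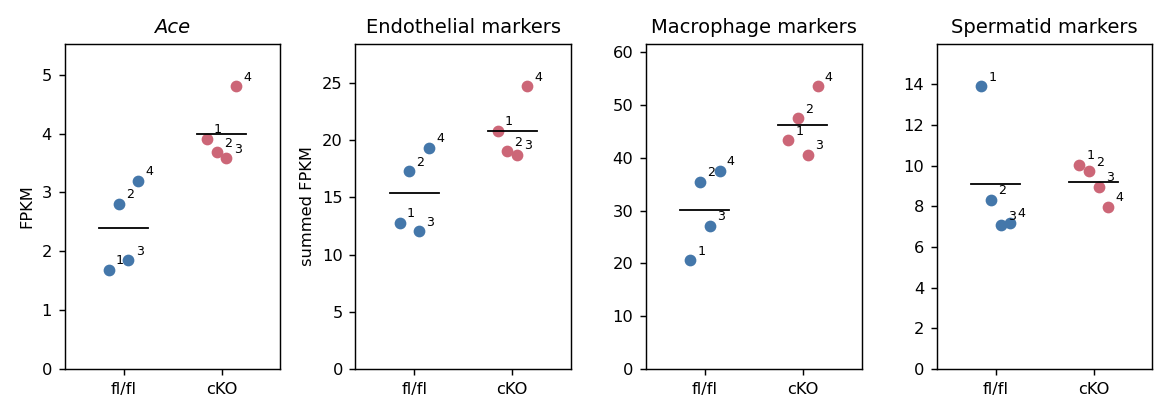
Ace in FPKM, and the summed FPKM of 8 endothelial, 8 macrophage and 10 spermatid markers, in each library (points labelled by replicate number) with a bar at the mean of each group of 4, each panel with its own axis from 0. Ace and the macrophage sum do not overlap between the groups, while the endothelial and spermatid sums do.

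Angiotensinogen (Agt), the precursor of the peptide that the enzyme cuts, also had groups that did not overlap. It was measured at 1.90, 3.38, 2.37 and 3.45 FPKM in the control libraries and 6.25, 4.80, 4.95 and 7.57 FPKM in the cKO libraries. The means of 2.78 ± 0.767 and 5.89 ± 1.29 FPKM (SD, n = 4 each) gave a log2 fold change of 1.08. The unadjusted limma p was 0.000586 and the limma adjusted p was 0.145, so Agt was not called by this fit. Agt is among the genes the study itself selected on these libraries, so its direction is not independent evidence. Of the 10 genes in the list 2 were tested, and the second, Lnpep, an aminopeptidase, had a log2 fold change of −0.09. Renin (Ren1) was listed at no more than 0.107 FPKM.

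Among the pathway lists, the ADAM3 route held the genes with the lowest fold changes. This list has 18 genes of the ADAM complex and of sperm migration, whose proteins pass through the chaperones above or act beside them. Of the 9 tested, 0 were called, all 9 had a log2 fold change below 0, 6 were lower at an unadjusted p below 0.05 (5.00% of all genes were) and 4 had groups that did not overlap (2.59% of all genes). Their median log2 fold change was −0.65, beside 0.01 over all genes. Both counts and the median include Adam3 and Cmtm2b, which the study itself selected on these libraries. The list was also chosen with earlier results of these data known, so these values are a description and not independent evidence. The count of 6 ran from 5 to 7 over the alternatives, and the smallest limma adjusted p of the list was 0.172. Under array weights (0.161 for control replicate 1) Adam3 and Cmtm2b were called.

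Adam3 encodes the surface protein whose maturation fails when the testis chaperones are lost. It had 4.25, 5.53, 8.79 and 5.68 FPKM in the control libraries and 3.10, 3.81, 2.68 and 2.28 FPKM in the cKO libraries, without overlap. The log2 fold change was −0.98 (SE 0.22, limma adjusted p = 0.172) between means of 6.06 ± 1.92 and 2.97 ± 0.653 FPKM (SD, n = 4 each). Cmtm2b, a MARVEL-domain protein required for ADAM3 on sperm, had means of 8.10 ± 3.28 and 3.42 ± 1.28 FPKM (SD, n = 4 each), and its log2 fold change of −1.21 (limma adjusted p = 0.178) did not pass the test. Adam32 had 15.3 ± 4.73 and 9.50 ± 1.498 FPKM (SD, n = 4 each), and the log2 fold change was −0.65 (limma adjusted p = 0.280).

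The remaining 3 genes of the 6, named after their values were seen, were Cmtm2a (−0.80), Adam5 (−0.76) and Adam1b (−0.46). Adam2, the fertilin subunit, was the most abundant at 70.8 ± 18.8 and 54.2 ± 16.98 FPKM (SD, n = 4 each), with a log2 fold change of −0.39 (limma adjusted p = 0.591). The other 9 of the 18 were below the filter, and 4 of them (Adam24, Prss55, Adam6a and Adam6b) were at 0 in every library. Adam3 and Cmtm2b are among the genes the study selected on these libraries, so their direction is not independent evidence. Adam3 also stands in the spermatocyte marker list, of which 3 of 9 tested were lower at an unadjusted p below 0.05 (5.00% of all genes were). They were Adam3 itself, Ldhc (−0.73, limma adjusted p = 0.286), the germ cell lactate dehydrogenase, and Piwil1 (−0.40, limma adjusted p = 0.441). With a library left out the count was 2 to 4 (2 without control replicate 2 or 3 or cKO replicate 2, 3 or 4, and 4 without control replicate 4). Of the 9 tested spermatocyte markers 8 were below 0 and 1 above, with a median log2 fold change of −0.30 (−0.11 without control replicate 1). Spermatocyte markers summed to 1165 to 1813 FPKM in the control and 955 to 1503 FPKM in the cKO libraries. Their part in the values of the ADAM3 list was not tested.

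**Figure D5:**
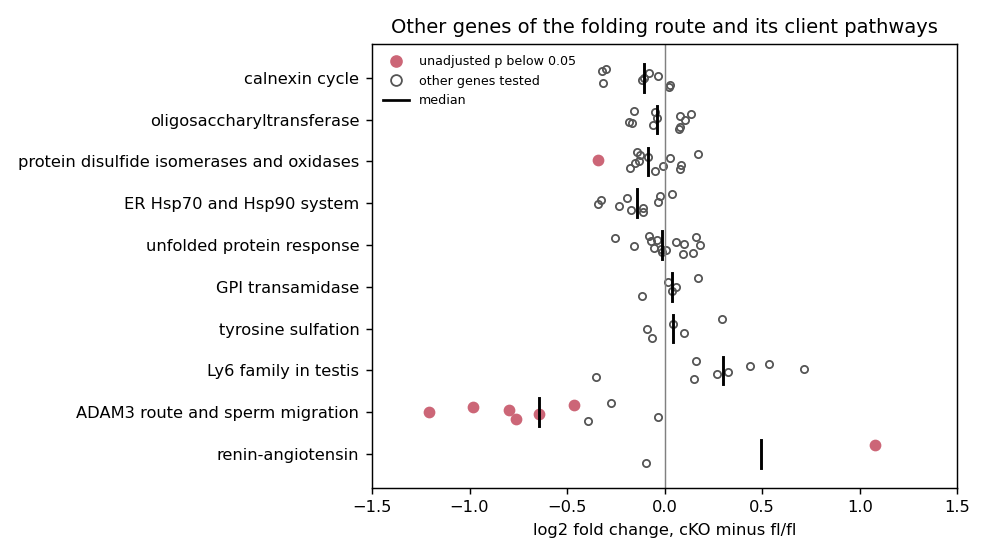
Log2 fold change (cKO minus fl/fl) of every tested gene in 10 lists of the folding route and its client pathways, with 1 point per gene, filled where the unadjusted limma p is below 0.05, and a bar at the median of each list. All 9 tested genes of the ADAM3 route lie below 0 with a median of −0.65, while the ER lists lie within 0.35 of 0.

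The medians of the folding lists depended on control replicate 1. Without it they were −0.02 for the calnexin cycle (5 of 9 genes below 0), −0.03 for the oligosaccharyltransferase, 0.01 for the disulfide isomerases and oxidases and −0.03 for the ER Hsp70 and Hsp90 system (7 of 10 below 0). The calnexin cycle list holds the glucosidases and sensors that add and remove the sugar that the lectins bind. It also holds Man1b1, Edem1, Edem2 and Edem3, which are outside that description. With all libraries, 0 of 9 tested in this list had an unadjusted p below 0.05, and the median log2 fold change was −0.11. The smallest p belonged to Uggt2, a sensor of unfolded glycoproteins, at −0.30 (limma adjusted p = 0.517), followed by Edem1 at −0.32 (0.591) and Mogs, the first glucosidase, at −0.32 (0.703). Edem1 was the 1 gene of the 9 whose groups did not overlap (2.59% of all genes were lower without overlap). Control replicate 1 held the highest value of both Edem1 (15.8 FPKM) and Mogs (43.7 FPKM), and the other controls of Edem1 lay between 8.42 and 8.89 FPKM. The oligosaccharyltransferase, which attaches the sugar, had 0 of 11 (median −0.04). Stt3b, a catalytic subunit, was at −0.17 (limma adjusted p = 0.700), with Ostc at 0.14 and Magt1 at −0.16. Stt3a, also a catalytic subunit, was at −0.04 (limma adjusted p = 0.912).

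Among the disulfide isomerases and oxidases, 1 of 13 tested was lower at an unadjusted p below 0.05 (5.00% of all genes), and the median was −0.08. Without control replicate 1 or 3, or cKO replicate 2, 3 or 4, the count was 0. The gene was Ero1lb, an oxidase that recharges the isomerases, at 23.3 ± 3.70 and 18.4 ± 3.24 FPKM (SD, n = 4 each), with a log2 fold change of −0.34 (limma adjusted p = 0.457). Pdia4 was at −0.18 and Tmx4 at −0.14. Of the ER Hsp70 and Hsp90 system 0 of 10 had an unadjusted p below 0.05, 9 of 10 were below 0, and the median was −0.14. After rescaling to TPM 7 of 10 were below 0 with a median of −0.06, and 2 genes were lower at that p without control replicate 4 (median −0.24) or cKO replicate 1. Its smallest p values were those of the co-chaperones Dnajc10 (−0.24, limma adjusted p = 0.567), Dnajc3 (−0.32, limma adjusted p = 0.583) and Sdf2l1 (−0.34, limma adjusted p = 0.680). Hspa5 (BiP) and Hsp90b1 (GRP94), named for their role in the ER and outside the rule for names, were at −0.17 and −0.11.

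The unfolded protein response, which acts through the element shown for Calr and Canx, had 0 of 15 tested at an unadjusted p below 0.05 and a median of −0.01, with 2 higher at that p without control replicate 1. Xbp1, one of its transcription factors, had 13.1 ± 1.29 and 14.8 ± 1.37 FPKM (SD, n = 4 each), and the log2 fold change was 0.18 (limma adjusted p = 0.601). Eif2ak3, the sensor PERK, was at −0.25 (limma adjusted p = 0.644) and Crebrf at −0.16 (limma adjusted p = 0.652). Neither Calr (0.09) nor Canx (−0.03) moved beyond the spread between libraries.

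For the anchors and modifications of the surface proteins the counts were likewise 0. The GPI transamidase, which attaches the anchor of proteins such as TEX101 and LY6K, had 0 of 5 (median 0.04), with Pigu at 0.17, Pigs at −0.12 and Gpaa1 at 0.06. Tyrosine sulfation beside Tpst2 had 0 of 5 (median 0.04). Its second enzyme Tpst1 had 23.2 ± 3.15 and 21.98 ± 1.09 FPKM (SD, n = 4 each), above Tpst2, and a log2 fold change of −0.07 (limma adjusted p = 0.874), while the sulfate donor enzymes Papss2 and Papss1 were at 0.29 and 0.10.

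In the Ly6 family beside Tex101 and Ly6k, 0 of 8 tested had an unadjusted p below 0.05 and 7 of 8 were above 0 (median 0.30). The median was 0.18 without control replicate 1, 0.43 without control replicate 2 (2 then higher at that p) and 0.09 with array weights. Ly6e was at 0.32 (limma adjusted p = 0.512) and Cd59a, a complement regulator, at 0.72 (limma adjusted p = 0.552). Lypd4, a sperm protein needed for fertilization, was the 1 gene below 0, with 52.0 ± 12.0 and 40.3 ± 5.95 FPKM (SD, n = 4 each) and a log2 fold change of −0.35 (limma adjusted p = 0.537).

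For the most abundant testis chaperone, general chaperone and surface protein, the genes with the most similar course over the 8 libraries were found by the smallest root mean square difference of centred log2(FPKM + 0.1). Clgn was closest to Efcab2 (0.057), Fsd1l (0.058) and Hsp90aa1 (0.062), against a root mean square of 0.26 for Clgn about its own mean. Calr was closest to Gpbp1l1 (0.028), Cd164 (0.031) and Kpna3 (0.034), against 0.12. Tex101 was closest to Pcbp3 (0.061), Ube2t (0.085) and BC049730 (0.093), against 0.27. The match is a description of 8 libraries that share depth and makeup between their genes.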

How the data were processed

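Per the study's methods, a sequencing company's software made the FPKM values. The authors deposited FPKM per gene with gene length, in a table of 54532 genes and again in 8 per-library files found equal to it. The aligner and the use of strand are not given in the sources used here, and the submitters' processing notes name GRCm38 and mm10. Starts and ends were the same as in GENCODE vM21 for 98.3% of the genes present there. FPKM times length gave whole fragments in 100% of the values above 0 and under 5000 fragments (tolerance 0.02).

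Groups follow the labels. limma 3.58.1 in R 4.3.3 (lmFit, eBayes with trend) was run on log2(FPKM + 0.1) of the 12141 genes that code for protein and averaged above 1 FPKM in each group, 4 libraries against 4, Benjamini-Hochberg adjusted. This scale understates changes of low genes. The authors' own count-based test was not run, and the paper reports more called genes from it than limma called here. The members and lists were chosen with earlier results of these data known. All members are named, and of each list the called genes or else up to 3 with the smallest p. Genes named beyond this were chosen after their values were seen. Replicate pairs all differed by more than sampling noise. Alternatives were other pseudocounts, filters, scalings and weights, voom on fragments, a replicate block and each library left out. Figures were drawn with matplotlib 3.10.9.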

Additional observations from a re-analysis of the deposited data

How the results depend on the processing

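No member was called under any of the 19 alternatives, and of 171 member values under them 156 kept their direction and side of the threshold and 15 turned direction, none of them past the threshold. The count of members at an unadjusted p below 0.05 was 1, and 1 to 2 with a library left out: it was 2 without control replicate 1 (Tpst2 added) and 2 without cKO replicate 1 (Clgn added). The turned log2 fold changes were 0.0298 for Canx and 0.0578 for Pdia3 with array weights, 0.0519 for Canx and 0.0475 for Pdia3 after rescaling to TPM, and −0.115 for Tex101 with array weights. With a library left out, Canx ran from −0.108 to 0.0353, Pdia3 from −0.107 to 0.109, Tex101 from −0.0891 to 0.157 and Tpst2 from −0.0336 to 0.278. Over all genes 2 were called, against 0 with no filter on FPKM, 4 with all biotypes, 57 with array weights, 1 after rescaling to TPM and 1 after autosomal median centring, and 0 to 3 with a library left out (0 without control replicate 2 or 3 or cKO replicate 1, 3 or 4, and 1 without control replicate 4). Of the 87 tested genes of the pathway lists 8 had an unadjusted p below 0.05, where 10.9% of all genes tested did. That count is near the share of all genes and is not a result about the lists. It was 17 with array weights and 6 to 14 with a library left out (14 without control replicate 4, 13 without cKO replicate 1). The share of all genes under the alternatives, the replicate block included, is not given here, so these counts cannot be set against it. Both groups use replicate numbers 1 to 4. Deviations from the group means correlated between libraries of the same number at 0.0757 to 0.406, above 0.1 in 3 of 4 pairs, and 3 of 4 libraries matched their own number best, which is a hint of pairing. The labels do not say that a number marks a litter and 1 pair lay below 0.1, so the samples were treated as sharing only a number. Clgn was lower in the cKO library in all 4 same-numbered pairs. With the replicate block 0 genes were called over all genes, 2 members had an unadjusted p below 0.05 (Ace and Clgn, the latter at 0.0446) and 15 pathway genes did. The cause of these shifts was not tested. The low fragment numbers of Calr3 and Pdilt limit what could be seen in them.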
